A study of Mus musculus with 6 samples.

Results

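Intestinal epithelial cells are held together by tight junctions, which seal the space between neighbouring cells, and by adherens junctions below them, which carry the mechanical load. For this comparison, 9 genes of this machinery other than claudins were followed in RNA sequencing of mouse intestine: the cytoplasmic scaffold genes Tjp1, Tjp3 and Cgn, the tight junction membrane protein genes Ocln, Marveld2 and F11r, the cadherin genes Cdh1 and Cdh17, and Epcam. They were chosen by name, with earlier results of these data known. All 9 were matched among the 54446 gene identifiers of the count table and were among the 19176 genes with enough counts to be tested. Necrotizing enterocolitis (NEC) is an inflammatory bowel disease of newborns in which the epithelial barrier is damaged, and the comparison asks whether the transcripts of these junction genes differed between intestine of mice put through an NEC protocol and intestine of dam-fed mice.

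The 6 samples were wild-type (WT) mouse intestine collected at 96 h. The 3 NEC samples came from pups gavaged with 40 µl of 33% Esbilac formula every 4 h, and exposed every 12 h to 99.9% nitrogen for 100 s and then to 4 °C for 10 min. The 3 control samples came from pups that stayed with the dam, without hypoxia or cold. NEC pups therefore differed from control pups in diet, hypoxia and cold together, and the effects of these cannot be told apart. The sources used here do not give the intestinal segment, the strain, or the age and sex of the pups. Nor do they say whether the samples were separate animals. The sex-linked transcripts given below differed between the control libraries, which were therefore not repeats of a single animal. All NEC libraries held Ddx3y and little Xist, so these transcripts cannot tell the NEC samples apart. The spread within NEC may therefore be technical.

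Total counts per library were 74912430 to 97445491 in NEC and 69441184 to 106304239 in control. The sample codes in the labels begin with AG181028 for NEC replicate 1 and control replicate 3 and with AG181017 for the other four, and what the codes stand for is not stated. Xist, which is transcribed in female cells, stood at 0.524, 0.429 and 0.546 CPM in NEC replicates 1 to 3, and at 179, 344 and 1.17 CPM in control replicates 1 to 3. The Y-linked gene Ddx3y stood at 25.6, 44.8 and 35.1 CPM in NEC and at 19.8, 1.29 and 30.9 CPM in control. Control replicate 1 thus held both Xist and Ddx3y counts, and control replicate 2 stood apart as the library with little Ddx3y. All NEC libraries held Ddx3y and little Xist, as did control replicate 3. The sex composition therefore also differed between the groups, besides diet, hypoxia and cold. CPM here is the count normalised to library size after TMM scaling, edgeR's trimmed mean method. The part of sex composition in the values below was not tested.

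Scaffold proteins of the tight junction bind the cytoplasmic tails of the membrane strands and tie them to actin. Occludin (Ocln) and tricellulin (Marveld2) are related proteins that cross the membrane several times, with tricellulin gathered where the corners of cells meet, and the junctional adhesion molecule encoded by F11r has immunoglobulin-like domains. E-cadherin (Cdh1) joins neighbouring cells at adherens junctions through catenins, Cdh17 encodes the liver-intestine cadherin of enterocytes, and EpCAM is a basolateral adhesion protein whose loss in humans causes congenital tufting enteropathy.

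Promoter sequence is shown for 5 members: the gene with the highest level (Epcam), the scaffold pair whose counts varied most closely over the libraries (Cgn and Tjp3) and the pair of neighbouring genes (Ocln and Marveld2). Each is the 250 bases before the RefSeq transcription start (GRCm38.p6, the assembly also called mm10), written 5′ to 3′ on the gene's strand, at chr17:87635729-87635978, plus strand for Epcam, chr3:94786483-94786732, minus strand for Cgn, chr10:81291582-81291831, minus strand for Tjp3, chr13:100552719-100552968, minus strand for Ocln and chr13:100616972-100617221, minus strand for Marveld2. Capitals mark matches on either strand to the E-box CACCTG, which Snail and Zeb repressors bind, the grainyhead core ACCGGT, the GC box GGGCGG and the TATA box TATAAA.
Epcam: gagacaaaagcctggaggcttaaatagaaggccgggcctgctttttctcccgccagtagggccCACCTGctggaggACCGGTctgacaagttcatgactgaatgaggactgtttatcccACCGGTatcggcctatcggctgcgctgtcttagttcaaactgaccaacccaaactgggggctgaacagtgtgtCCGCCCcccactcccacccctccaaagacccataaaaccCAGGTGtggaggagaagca
Cgn: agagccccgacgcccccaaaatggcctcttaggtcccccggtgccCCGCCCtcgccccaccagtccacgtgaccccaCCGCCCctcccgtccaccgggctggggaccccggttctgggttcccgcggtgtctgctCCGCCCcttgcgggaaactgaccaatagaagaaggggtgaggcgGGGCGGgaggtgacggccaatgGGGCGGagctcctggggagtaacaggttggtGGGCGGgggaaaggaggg
Tjp3: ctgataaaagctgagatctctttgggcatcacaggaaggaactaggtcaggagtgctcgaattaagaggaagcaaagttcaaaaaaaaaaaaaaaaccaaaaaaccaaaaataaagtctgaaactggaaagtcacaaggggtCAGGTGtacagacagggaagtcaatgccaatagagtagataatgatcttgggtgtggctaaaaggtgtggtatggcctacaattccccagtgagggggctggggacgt
Ocln: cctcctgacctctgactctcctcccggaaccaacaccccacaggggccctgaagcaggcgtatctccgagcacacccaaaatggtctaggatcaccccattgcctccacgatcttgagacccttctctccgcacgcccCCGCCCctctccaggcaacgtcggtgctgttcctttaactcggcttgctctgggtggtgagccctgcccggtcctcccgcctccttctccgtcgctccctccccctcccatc
Marveld2: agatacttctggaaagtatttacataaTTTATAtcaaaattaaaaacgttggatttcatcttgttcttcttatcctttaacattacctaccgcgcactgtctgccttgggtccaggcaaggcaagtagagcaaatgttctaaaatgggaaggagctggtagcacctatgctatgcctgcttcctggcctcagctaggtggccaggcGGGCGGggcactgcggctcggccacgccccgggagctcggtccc
A window was found for 7 of the 9 members. The RefSeq start used for Tjp1 lies 156537 bases from the GENCODE start of the gene, against 0 to 26 bases for the others. Over the 7 windows, Tjp1 included, G+C content ran from 43.2% in Tjp3 to 70.4% in Cgn. The median was 60.0%, against 52.4% over all 32851 windows of the table. Epcam was the only one of the 7 with the grainyhead core, which occurred 2 times in its window and in 1.86% of all windows. The E-box was present in 3 of the 7 (Epcam, Tjp3 and F11r) and in 17.2% of all windows, the GC box in 6 of the 7 and in 32.7% of all, and the TATA box in Marveld2 alone and in 12.4% of all. Cgn had 6 GC box matches and 19 CpG dinucleotides in its window, and Tjp3 had 0 GC box matches and 2 CpG dinucleotides. A match describes these letters and is not a binding site.

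Transcripts of all 9 genes were abundant in both groups, and none of the 9 passed the test between NEC and control. In edgeR's quasi-likelihood test 0 of 9 had an adjusted p below 0.05, where 0.704% of all genes tested did, and 0 of 9 had an unadjusted p below 0.05, where 15.6% of all genes tested did (7.61% higher in NEC and 7.99% lower). DESeq2 also called 0 of 9, where it called 7.54% of all genes tested, and limma-voom called 0 of 9, where it called 0.787%. In no member did the NEC libraries all lie above or all below the control libraries, which held for 22.4% of all genes tested (10.8% above and 11.6% below). Log2 fold changes of NEC over control ran from -0.22 for Ocln to 0.34 for Marveld2, with a median of -0.098 over the 9 members and 0.026 over all genes tested, and 3 were positive and 6 negative. A missed threshold does not show equal levels, so the 95% intervals are the more direct measurement. For 6 of 9 members the interval lay within 2-fold in either direction, for the other three (Tjp3, Cgn and Ocln) it reached past 2-fold, and for 0 of 9 did it lie within 1.5-fold. In simulated data for this comparison the procedure recovered 6% of genes made to differ by 1 on the log2 scale and 54% of those made to differ by 2. In bulk tissue, fewer cells of a type and less RNA per cell cannot be told apart.

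**Figure D1:**
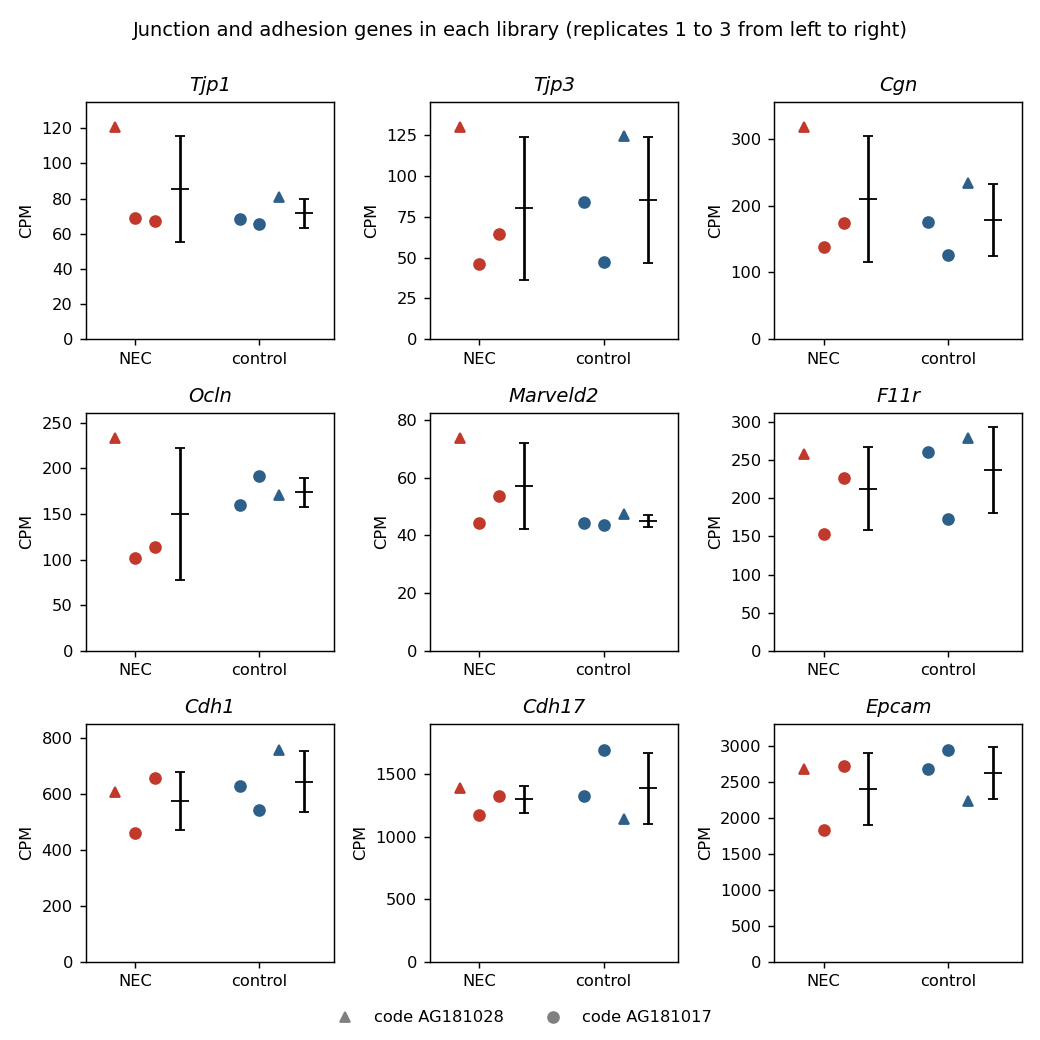
Normalised counts (CPM, axes from 0) of the 9 genes, 1 point per library with replicates 1 to 3 from left to right, NEC in red and control in blue, with the group mean and SD (n = 3) in black; triangles mark sample code AG181028 and circles AG181017. The groups overlap in every panel, and the NEC triangle is the highest library for Tjp1, Tjp3, Cgn, Ocln and Marveld2.

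Tjp1 encodes ZO-1, the scaffold that links occludin and claudins to actin. It lies on chromosome 7 from 65296165 to 65527781 on the minus strand of mm10 (ENSMUSG00000030516), a span with 31 exon blocks. Tjp1 had 121, 69.1 and 67.1 CPM in NEC replicates 1 to 3, and 68.7, 65.4 and 80.8 CPM in control replicates 1 to 3. NEC replicate 1 stood above the rest, and the other NEC libraries lay within the range of the controls. The means were 85.6 ± 30.3 CPM in NEC and 71.6 ± 8.12 CPM in control (SD, n = 3 each), and the log2 fold change was 0.26 (SE 0.29, 95% interval -0.41 to 0.92, edgeR adjusted p = 0.731). Without NEC replicate 1 the log2 fold change was -0.075.

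Tjp3 encodes ZO-3, a ZO-1 relative found in epithelia (chromosome 10, 81273207 to 81291581, minus strand), and Cgn encodes cingulin, a plaque protein that binds ZO-1 and actomyosin (chromosome 3, 94760069 to 94786492, minus strand). Tjp3 had 129, 46.0 and 64.6 CPM in NEC and 83.9, 47.1 and 124 CPM in control. Cgn had 317, 138 and 174 CPM in NEC and 176, 126 and 233 CPM in control. In both genes the highest library of each group was the AG181028 library, and the spread within a group exceeded the difference between the groups. For Tjp3 the log2 fold change was -0.087 (SE 0.47, 95% interval -1.18 to 1.0, edgeR adjusted p = 0.960). For Cgn it was 0.23 (SE 0.38, 95% interval -0.64 to 1.11, edgeR adjusted p = 0.828). The direction of either gene turned with single libraries: Tjp3 was at 0.29 without control replicate 3, 0.20 without NEC replicate 2 and 0.049 without NEC replicate 3, and Cgn was at -0.19 without NEC replicate 1. Tjp3 shares 40 exonic bases with Apba3 on the opposite strand, 1.1% of its exons, and none of the other 8 members shares exonic bases with another annotated gene.

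Ocln and Marveld2, whose proteins share the MARVEL membrane domain, are neighbours on the minus strand of chromosome 13 (100496507 to 100552718, and 100595957 to 100616971). The gap between them is 43238 bases, with 0 protein-coding genes in it. Ocln had 233, 102 and 114 CPM in NEC and 160, 191 and 170 CPM in control. NEC replicate 1 lay above every control library, and NEC replicates 2 and 3 lay below every control library, so the groups overlap although no NEC library fell among the controls. The log2 fold change of Ocln was -0.22 (SE 0.34, 95% interval -1.01 to 0.58, edgeR adjusted p = 0.825). Without NEC replicate 1 it was -0.69 (adjusted p = 0.261), and within the 4 AG181017 libraries it was -0.73 (adjusted p = 0.274), so it remained short of the threshold. The single pair of AG181028 libraries differed by 0.45 on the log2 CPM scale, higher in NEC.

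Marveld2 had 73.7, 44.3 and 53.7 CPM in NEC and 44.4, 43.5 and 47.4 CPM in control. The controls were tightly grouped, with a coefficient of variation of 4.54%, and NEC replicate 2 lay among them. Its log2 fold change was 0.34 (SE 0.25, 95% interval -0.23 to 0.92, edgeR adjusted p = 0.566), the smallest p of the 9, and 36.0% of all genes tested had a smaller p.

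The ratio of Ocln to Marveld2 CPM within a library was 3.16, 2.31 and 2.11 in NEC and 3.60, 4.39 and 3.59 in control. Every NEC library had a lower ratio than every control library. The means were 2.53 ± 0.558 in NEC and 3.86 ± 0.461 in control (SD, n = 3 each), a difference of -0.63 on the log2 scale. The ratio was chosen after the values had been seen, so it is given as a description, with no test. Of the 36 ratios that the 9 members form, 3 had groups that did not overlap (Ocln to Marveld2, Tjp1 to Ocln, and Marveld2 to Cdh1), which is 8.33%. Over all 50637016 pairs of named coding genes with a mean of at least 5 CPM, members included, 25% had groups that did not overlap. Ratios that share a member are not independent of each other.

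**Figure D2:**
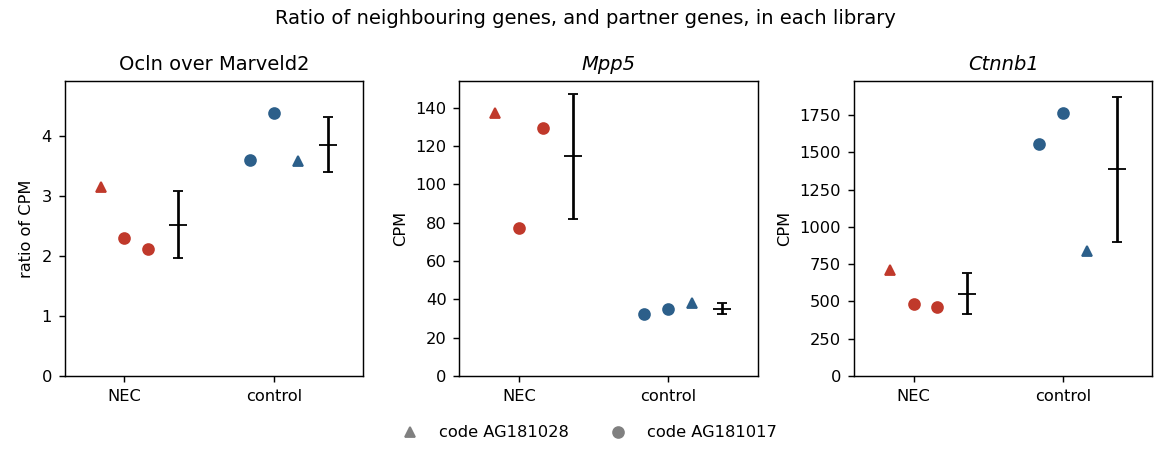
Ratio of Ocln to Marveld2 CPM (left) and CPM of Mpp5 (middle) and Ctnnb1 (right), 1 point per library with axes from 0, NEC in red and control in blue, with the group mean and SD (n = 3) in black and sample codes by symbol. The NEC libraries lie below the control libraries in the left and right panels and above them in the middle panel, where Mpp5 stands at 77.4 to 138 CPM in NEC and 32.6 to 38.3 CPM in control.

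F11r encodes the junctional adhesion molecule JAM-A and lies on chromosome 1 from 171437535 to 171464603 on the plus strand. It had 259, 153 and 226 CPM in NEC and 261, 173 and 279 CPM in control, and the ranges of the groups overlap over most of their width. Its log2 fold change was -0.16 (SE 0.30, 95% interval -0.85 to 0.53, edgeR adjusted p = 0.859).

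Cdh1 encodes E-cadherin (ENSMUSG00000000303, chromosome 8, 106603351 to 106670246, plus strand). It had 606, 459 and 657 CPM in NEC and 628, 541 and 758 CPM in control. NEC replicate 2 was the lowest of the 6 libraries, and the other NEC libraries lay among the controls. The log2 fold change was -0.16 (SE 0.26, 95% interval -0.76 to 0.44, edgeR adjusted p = 0.827). Cdh17 (chromosome 4, 11758147 to 11817895, plus strand) had 1391, 1177 and 1325 CPM in NEC and 1330, 1698 and 1140 CPM in control. All 3 NEC libraries lay inside the range of the controls, and the log2 fold change was -0.098 (SE 0.26, 95% interval -0.70 to 0.50, edgeR adjusted p = 0.909). The direction of Cdh17 rested on control replicate 2, without which the log2 fold change was 0.070.

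Epcam (chromosome 17, 87635979 to 87651129, plus strand) had the highest counts of the 9, with 2675, 1833 and 2720 CPM in NEC and 2687, 2953 and 2234 CPM in control. NEC replicate 2 was again the lowest library, and NEC replicates 1 and 3 lay within the range of the controls. The log2 fold change was -0.12 (SE 0.28, 95% interval -0.77 to 0.53, edgeR adjusted p = 0.891), and it was 0.033 without NEC replicate 2.

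**Figure D3:**
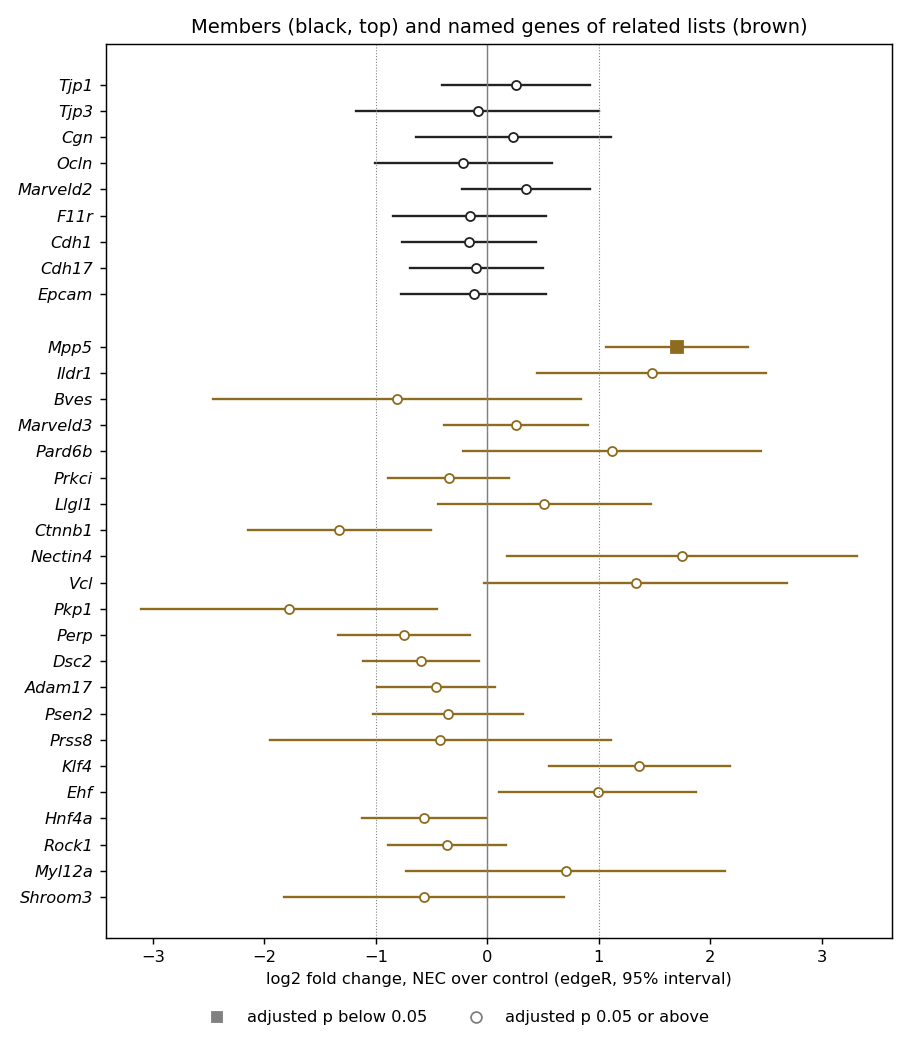
Log2 fold change of NEC over control with its 95% interval for the 9 members (black) and the genes named from lists of related junction, polarity and regulator genes (brown); dotted lines mark 2-fold. All 9 member intervals cross 0, and Mpp5 is the named gene with an adjusted p below 0.05.

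NEC replicate 2 was the lowest of all libraries for Tjp3, Ocln, F11r, Cdh1 and Epcam. The summed CPM of the 9 members was 5805, 4022 and 5402 in NEC and 5438, 5838 and 5066 in control. NEC replicate 2 was also the highest of the 6 libraries in the summed markers of 4 other cell types. Fibroblast markers (7 genes) stood at 2025 CPM there, against 518 and 612 CPM in the other NEC libraries and 707 to 1002 CPM in control. Smooth muscle markers stood at 3009 CPM there, against 1019 and 2019 CPM in the other NEC libraries and 865 to 2050 CPM in control. Erythroid markers stood at 2750 CPM and enteric neuron and glia markers at 42.9 CPM in that library. In NEC replicate 2 the epithelial markers summed to 7154 CPM, which was inside the range of the controls. Its enterocyte markers summed to 58009 CPM, the lowest of the 6 libraries. The part of these cell types in the members' values was not tested. The 8 epithelial markers summed to 7154 to 8972 CPM in NEC and 5810 to 7639 CPM in control. All 8 were detected in the tissue, and 0 of 8 were called. Among them Krt19 stood at 256, 471 and 458 CPM in NEC, above all controls at 101, 176 and 125 CPM. It was higher by 1.56 on the log2 scale, short of the threshold (edgeR adjusted p = 0.0891). Krt8 was also higher in every NEC library than in every control library (0.41 on that scale, edgeR adjusted p = 0.474). Log2 fold changes were positive for 4 of the 8 and negative for 4. In 0 of the 8 did every NEC library lie below every control library. The 8 enterocyte markers summed to 58009 to 145196 CPM in NEC and 70189 to 143216 CPM in control, most of it Apoa4 and Apoa1, and 0 of 8 were called. Of these 8 genes, 7 had negative log2 fold changes (median -0.30). The lactase gene Lct had 747, 376 and 667 CPM in NEC and 2476, 1462 and 2951 CPM in control, every NEC library below every control library (log2 fold change -1.94, SE 0.39, edgeR adjusted p = 0.0761). The fatty acid binding protein gene Fabp1 had a log2 fold change of -1.82 (SE 0.71, edgeR adjusted p = 0.278), and Alpi and Fabp2 had -0.22 and -0.21. The part of these enterocyte differences in the members' values was not tested. Erythroid markers summed to 475 to 2750 CPM in NEC and 213 to 337 CPM in control with 0 of 5 called. All 5 had positive log2 fold changes (2.42 to 3.11, median 2.49) and an unadjusted edgeR p below 0.05. In 4 of the 5 every NEC library was above every control library. Leukocyte markers summed to 143 to 197 CPM in NEC and 260 to 341 CPM in control with 0 of 6 called, but that sum is mostly Csf1r, at 130 ± 22.4 CPM in NEC and 278 ± 37.7 CPM in control (SD, n = 3 each). Of the 6 leukocyte genes, 4 had positive log2 fold changes (median 0.54). In Cd68 (1.31, SE 0.26, edgeR adjusted p = 0.0773) and S100a8 (5.22, SE 1.25, adjusted p = 0.110) every NEC library was above every control library. Csf1r went the other way, with every NEC library below every control library. S100a8 was low, at 1.42, 11.7 and 2.99 CPM in NEC and 0, 0.244 and 0.181 CPM in control. Smooth muscle (0 of 6 called), endothelial (0 of 6), enteric neuron and glia (0 of 6) and fibroblast markers (0 of 7) overlapped between the groups in their sums.

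Per kb of exon, which allows levels of different genes to be compared, the members spanned a wide range and kept the same order in both groups. Epcam was highest, at 1098 ± 228 CPM per kb in NEC and 1196 ± 166 CPM per kb in control (SD, n = 3 each), and ranked 33 of 15354 coding genes tested over all libraries. Cdh17 followed at 290 ± 24.5 CPM per kb in NEC and 310 ± 63.4 CPM per kb in control, and Cdh1 at 126 ± 22.4 CPM per kb in NEC and 140 ± 23.8 CPM per kb in control. Epcam and both cadherin genes thus stood above the tight junction genes. Below them stood F11r, Ocln, Cgn, Tjp3, Marveld2 and Tjp1, with Tjp1 lowest at 11 ± 3.88 CPM per kb in NEC and 9.17 ± 1.04 CPM per kb in control. The libraries of neighbours in this order did not overlap from Epcam down to Ocln in either group. Ocln and Cgn, Cgn and Tjp3, and Tjp3 and Marveld2 overlapped in both groups, and Marveld2 and Tjp1 overlapped in NEC but not in control. Exonic length was that of all annotated exons.

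**Figure D4:**
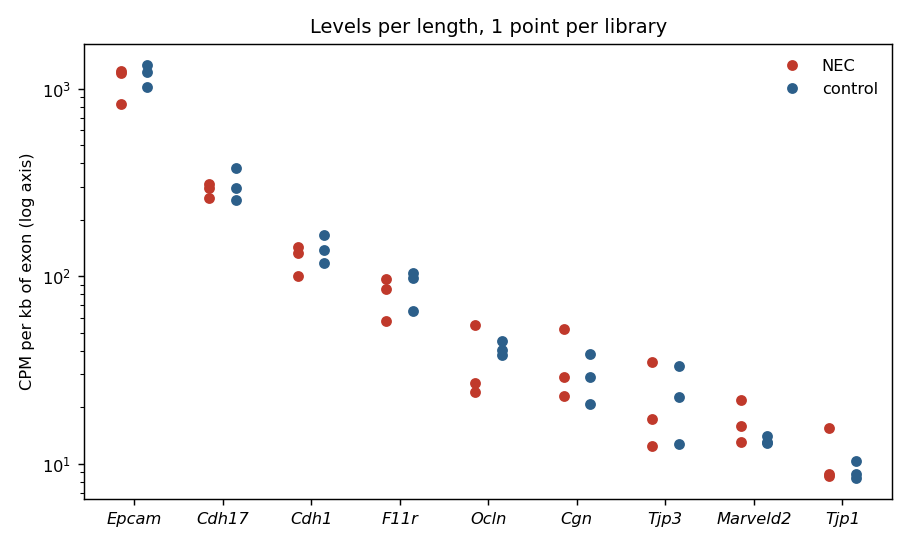
Levels in CPM per kb of exon on a log axis, 1 point per library, NEC in red to the left of control in blue, with genes in the order of their mean over all libraries. The order is the same in both groups, from Epcam near 1098 in NEC and 1196 in control down to Tjp1 near 11 in NEC and 9.17 in control.

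Several of the 9 genes varied together from library to library within the groups. Deviations from the group means were correlated over the 6 libraries, as a description without a test, since the points share their library's depth and tissue makeup. Tjp3 and Cgn had r = 0.99, Ocln and Marveld2 r = 0.92, Tjp3 and F11r r = 0.92, and F11r and Cdh1 r = 0.89. Cdh17 and Epcam went together at r = 0.78, while Cdh17 stood at -0.36 with Tjp3, -0.35 with Cdh1 and -0.32 with F11r. The median over the 36 pairs was 0.59. The scaffold and membrane genes of the tight junction thus had positive correlations in every pair, the lowest being 0.43 for Ocln with F11r. Those of Cdh17 were also negative with Cgn (-0.25) and near 0 with Tjp1 (-0.0077), and positive with Ocln (0.44) and Marveld2 (0.22). Such correlations were not taken for other genes, so they are not shown to be particular to junction genes. For Tjp1, Tjp3 and Cgn they include the difference between sample codes given below.

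**Figure D5:**
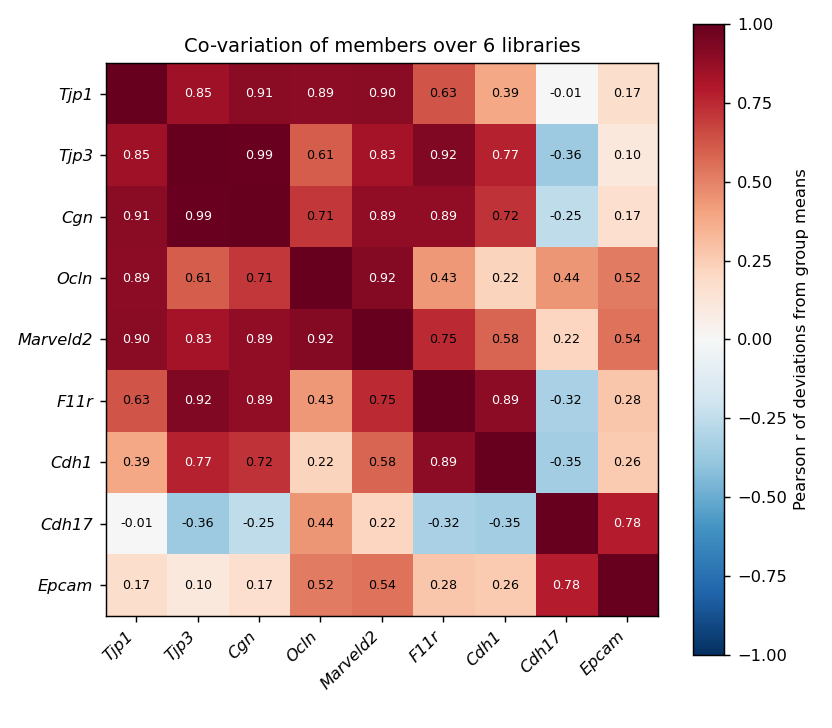
Pearson r of the deviations of log2 CPM from the group means, over 6 libraries, for every pair of the 9 genes (red positive, blue negative). The block from Tjp1 to Marveld2 ranges from 0.61 for Tjp3 with Ocln to 0.99 for Tjp3 with Cgn, and Cdh17 pairs best with Epcam at 0.78.

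The scaffold genes also followed the sample code. Both AG181028 libraries, NEC replicate 1 and control replicate 3, were above all 4 AG181017 libraries for Tjp1, Tjp3 and Cgn, which held for 12.2% of all genes tested. With the group as a term, the log2 fold change of AG181028 over AG181017 was 1.08 for Tjp3 (SE 0.28, edgeR adjusted p = 0.190), 0.83 for Cgn (SE 0.24, adjusted p = 0.197) and 0.56 for Tjp1 (SE 0.20, adjusted p = 0.233). None of the 9 passed, where 0.0261% of all genes tested did, and this contrast of 2 against 4 libraries was added after the values had been seen. Within the codes, the NEC minus control difference in log2 CPM had opposite signs in the AG181028 pair and the AG181017 libraries for Ocln (0.45 and -0.70), Cdh17 (0.29 and -0.27), Epcam (0.26 and -0.34) and Tjp3 (0.061 and -0.20). The AG181028 code has 1 library per group, so its differences carry no error. The AG181028 libraries were also the deepest, at 97445491 (NEC) and 106304239 (control) counts, against 69441184 to 77953991 in the AG181017 libraries. Code and depth thus coincide, and the part of depth was not tested.

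Genes whose log2 CPM followed each member most closely over the 6 libraries were drawn from 10055 named coding genes with a mean of at least 5 CPM. By Pearson r, F11r was nearest to the brush border phosphatase gene Alpi (0.992), Marveld2 to Acbd3 (0.998), Tjp3 to Acap2 (0.998), and Cdh1 to Resf1 (0.992). Ocln was nearest to Usp25 (0.983), Tjp1 to Vrk3 (0.983), Epcam to Tcta (0.984) and Cdh17 to Sugct (0.983). Many other genes came close: between 8 (for Cdh17) and 322 (for Tjp3) genes had r above 0.95 with a member.

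Around the members, the wider junction genes were mostly below the threshold as well. Of 18 further tight junction plaque and scaffold genes, 1 rose and 0 fell, with a median log2 fold change of 0.055. The gene that rose was Mpp5, which encodes PALS1, a scaffold of the Crumbs polarity complex at the tight junction. It had 138, 77.4 and 129 CPM in NEC and 32.6, 34.8 and 38.3 CPM in control, so that every NEC library was above every control library. In Mpp5 the log2 fold change was 1.70 (SE 0.28, 95% interval 1.07 to 2.34, edgeR adjusted p = 0.0472). The call was close to the threshold. It ended without NEC replicate 1 (adjusted p = 0.112), NEC replicate 3 (0.203), control replicate 1 (0.271), control replicate 2 (0.101) or control replicate 3 (0.106), and within the AG181017 libraries (0.154), with log2 fold changes of 1.55 to 1.76 in these fits. It held without NEC replicate 2 (log2 fold change 1.91, adjusted p = 0.0371). The partners of PALS1 in that complex, Patj and Crb3, had log2 fold changes of -0.084 (SE 0.25) and 0.11 (SE 0.36) and did not pass.

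Of 10 other tight junction membrane genes 0 passed (median log2 fold change -0.069). Ildr1, which encodes an angulin that recruits tricellulin to cell corners, had the smallest p of them, with 28.2, 10.1 and 15.5 CPM in NEC and 7.28, 7.84 and 4.23 CPM in control. Every NEC library was above every control library, and the log2 fold change was 1.48 (SE 0.44, edgeR adjusted p = 0.175, DESeq2 adjusted p = 0.0281). Of 13 polarity genes 0 passed (median -0.038), with the smallest p for Pard6b at 116 ± 60.2 CPM in NEC and 53.7 ± 35.5 CPM in control (SD, n = 3 each). Of 12 actomyosin genes 0 passed (median 0.12).

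Of 16 catenin and adherens junction genes 0 passed (median log2 fold change 0.14). Ctnnb1 encodes beta-catenin, which binds the E-cadherin tail and also acts in Wnt signalling. It had 709, 480 and 466 CPM in NEC and 1554, 1766 and 837 CPM in control. Every NEC library was below every control library, and the log2 fold change was -1.33 (SE 0.35, edgeR adjusted p = 0.135, DESeq2 adjusted p = 0.0139), beside -0.16 for Cdh1. Ctnnb1 shares 759 exonic bases with Ulk4 on the opposite strand, and their counts cannot be told apart where they overlap. The catenin genes Ctnna1 and Jup had log2 fold changes of 0.070 (SE 0.29) and 0.087 (SE 0.41). Ctnnd1 had 0.61 (SE 0.79) and is uncertain, since 61.2% of its exonic bases are shared with Gm28635 on the same strand.

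Of 10 desmosome genes 0 passed (median -0.095). The NEC libraries were all below the control libraries in 3 of them, which held for 11.6% of all genes tested, and 3 of the 10 had positive log2 fold changes. Perp, a membrane protein of desmosomes, had 472, 452 and 515 CPM in NEC and 906, 899 and 608 CPM in control, and its log2 fold change was -0.75 (SE 0.26, edgeR adjusted p = 0.225). Dsc2, a desmosomal cadherin, had 83.4 ± 11.9 CPM in NEC and 126 ± 15.2 CPM in control (log2 fold change -0.60, SE 0.22, edgeR adjusted p = 0.261). The third was Pkp1, at 0.283 ± 0.0846 CPM in NEC and 0.976 ± 0.447 CPM in control. Of 8 EpCAM partner and junction protease genes 0 passed (median 0.051), and the smallest p was that of the sheddase gene Adam17 at 19.1 ± 2.84 CPM in NEC and 26.3 ± 1.49 CPM in control.

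Of 20 regulators of epithelial junction genes 0 passed (median log2 fold change 0.064). Klf4, a transcription factor of differentiated epithelium, had 438, 174 and 337 CPM in NEC and 118, 116 and 134 CPM in control, every NEC library above every control library (log2 fold change 1.37, SE 0.35, edgeR adjusted p = 0.124, DESeq2 adjusted p = 0.0102). Hnf4a, a nuclear receptor that drives enterocyte genes, had 360, 507 and 379 CPM in NEC and 655, 587 and 606 CPM in control, every NEC library below every control library (log2 fold change -0.57, SE 0.24, edgeR adjusted p = 0.310). The Cdh1 repressor genes Snai1, Snai2, Zeb1 and Zeb2 were low in both groups, with group means from 0.645 to 13.0 CPM, and none passed. DESeq2 called 1446 genes (7.54% of those tested). Among the genes named from the junction, polarity, actomyosin and regulator lists these were Mpp5, Ildr1, Ctnnb1 and Klf4. Most genes were named because they were called or had a small p in this comparison, so these calls cannot be set against the 7.54%. These lists were drawn up with earlier results of these data known.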

How the data were processed

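Intestine of 3 NEC and 3 control samples was sequenced from total RNA as 150 bp read pairs, per the labels' protocols. The authors deposited 1 table of whole-number read counts per gene, unnormalized. The genome build is mm10, per the submitters' processing notes, and no aligner, counter, annotation or strand setting is given in the sources used here. Low counts gathered at multiples of 4 (1.93 times their neighbours), so totals may overstate the number of fragments. Gene names, positions and exonic lengths are from GENCODE release M21 on mm10, which matched 54409 of 54446 identifiers.

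Counts were tested with edgeR 4.0.16 (R 4.3.3): filterByExpr with a minimum count of 10, TMM, robust=TRUE, quasi-likelihood F test, and Benjamini-Hochberg adjustment over 19176 genes with a threshold of 0.05. SE and intervals come from the same fit. Log2 CPM had a prior count of 2. DESeq2 1.42.0, limma-voom (limma 3.58.1), other scalings (RLE, upper quartile, totals) and filters, robust=FALSE, the 5 most abundant genes left out, a replicate block, the sample code and single libraries left out were alternatives. On simulated counts with 200 changed genes (mean above 1 CPM), 6%, 54%, 88% and 96% of log2 changes of 1, 2, 3 and 4 were recovered, and 3 of 125 calls were false. Every pair of libraries differed by more than sampling noise. The members and gene lists were chosen with earlier results of these data known. Besides the members, the genes named were those called in each list, or otherwise up to 3 per list by smallest p, and the gene nearest to each member (that of Cgn is not reported here); a few more were named after their values were seen (Patj, Crb3, the other catenins, the Cdh1 repressors).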

Additional observations from a re-analysis of the deposited data

How the results depend on the processing

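No member passed the test under any of the 18 alternatives, and the count of members called was 0 in each. Cdh1 and Marveld2 kept their direction in all 18, whereas the log2 fold changes of the other seven changed sign in at least 1. With 1 library left out they ranged from -0.075 to 0.41 for Tjp1, -0.62 to 0.29 for Tjp3, -0.19 to 0.48 for Cgn, -0.69 to 0.00062 for Ocln, -0.34 to 0.027 for F11r, -0.23 to 0.070 for Cdh17 and -0.24 to 0.033 for Epcam. Within the 4 AG181017 libraries Tjp1 was at -0.0025 and the list gene Marveld3 at -0.12. Prss8 ranged from -1.31 to 0.38 with 1 library left out; alternatives for list genes were added after the data were seen. The 135 genes called overall became 247 without a low-count filter, 1446 with DESeq2, 54 with the replicate block, 243 with the sample code as a term, 25 within the AG181017 libraries, and 0 to 106 with 1 library left out (leaving out NEC replicate 1 gave 34, NEC replicate 3 gave 3, control replicate 1 gave 0 and control replicate 3 gave 25); the cause was not tested. Where edgeR called 0, 1867 genes had an unadjusted p below 0.05. Same-numbered NEC and control libraries had deviations correlated at -0.14, 0.27 and -0.0070, NEC replicate 1 correlated best with control replicate 3, and the replicate numbers were therefore not taken as pairs; the block ended the Mpp5 call (adjusted p = 0.0750). The lowest count of any member in a library was 3028, and the spread between 3 libraries a group limits the intervals more than counting error does.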
